A study of Mus musculus with 3 samples.

Results

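Of the 20145 mouse genes that could be named on the arrays, 10 genes of bone morphogenetic protein (BMP) signaling are described here across 3 sorted cell populations. They are the ligand genes *Bmp2*, *Bmp4* and *Bmp7*, the antagonist gene *Nog*, the response genes *Id1*, *Id2*, *Id3* and *Id4*, and the homeobox genes *Msx1* and *Msx2*. They were chosen by name, and 11 of the 26582 named probes carried a RefSeq transcript of one of them, with 2 probes for *Bmp4* and 1 for each of the others.

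RNA was profiled on 3 single-color Agilent arrays, 1 array for each population, to ask how closely interneuron precursors made from embryonic stem (ES) cells resemble those of the medial ganglionic eminence (MGE), the ventral forebrain region that gives rise to most cortical interneurons. With 1 array per population there were no replicates, no test was run, and each difference is a value for these 3 arrays. Both ES-Lhx6-GFP+ cells and their ES-Lhx6-GFP- counterparts came from the J14 mouse ES line, of 129S4/SvJae background and labeled male, after 12 days of an MGE differentiation protocol with the Wnt inhibitor Dkk-1 at 100 ng/ml and the hedgehog agonist SAG at 6 nM. J14 carries a BAC transgene in which *Lhx6* sequences drive GFP, and the labels add a viral mCherry reporter under enhancer 692. MGE-GFP+ cells came from embryonic day 12.5 CD1 embryos with the Lhx6-GFP BAC, were labeled female, and were not cultured. All 3 populations were sorted by flow cytometry for GFP, so that ES-Lhx6-GFP- cells are whatever live cells of the culture lacked it. The ES populations stand for 1 line, and strain, culture and source of cells cannot be told apart in a comparison with MGE-GFP+ cells.

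BMPs are secreted ligands of the TGF-beta superfamily that bind type I and type II serine/threonine kinase receptors, which phosphorylate Smad1, Smad5 and Smad8/9. These enter the nucleus with Smad4 and switch on targets, among them the Id genes and the Msx genes. Id proteins lack a DNA-binding domain and hold back basic helix-loop-helix factors by binding their E protein partners. In the embryonic forebrain BMPs come mainly from the dorsal midline, where they favor dorsal fates, and they also promote glial over neuronal differentiation at later stages.

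The labels were first set against marker genes. All 13 MGE lineage markers listed for this purpose, *Lhx6*, *Lhx8* and *Nkx2-1* among them, were above the range of the control probes on every array. All 13 were 2-fold or more above ES-Lhx6-GFP- cells in each GFP+ population, though 11 were so for ES-Lhx6-GFP+ cells when arrays were scaled to the 50th percentile. The call for *Lhx6* rests on the mean of 3 probes, which disagree: the brightest, at 111900, 122200 and 97730 in ES-Lhx6-GFP+, then ES-Lhx6-GFP-, then MGE-GFP+ cells, gave log2 differences of 0.05 and 0.23 against the GFP- cells, where the mean gave 2.63 and 3.41. The sex labels did not match the sex-linked probes. *Xist*, transcribed from the inactive X chromosome, had intensities of 22100 and 2750 on the MGE-GFP+ array and at most 40.8 on the ES arrays, but the Y-linked genes *Ddx3y* and *Kdm5d* also gave 195 and 254 on the MGE-GFP+ array, labeled female. In the ES-derived cells, labeled male, *Ddx3y* gave 7.06 and 11.1 and *Kdm5d* gave 6.53 and 3.92 (GFP+ first), none of them well above background, while *Eif2s3y* gave 331 and 388. The part of donor sex in the values below was not tested.

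Sequence upstream of the genes could be read for 6 of the 10 members, *Bmp4*, *Id2*, *Id3*, *Id4*, *Msx1* and *Msx2*, in a RefSeq table of GRCm38.p6. The 250 bases before the start of the 3 Id genes and of *Bmp4* are shown because the Id genes are the standard readout of BMP signaling and *Bmp4* is the ligand measured above the control probes on every array. Capitals mark GGCGCC, a GC-rich element to which Smad1 and Smad5 bind, and GTCT or its reverse complement AGAC, the short Smad-binding element. The motifs were searched on both strands and cannot overlap one another. *Id2* (chr12:25096093-25096342) and *Bmp4* (chr14:46390670-46390919) lie on the minus strand, and *Id3* (chr4:136143572-136143821) and *Id4* (chr13:48260866-48261115) on the plus strand.
*Id2*: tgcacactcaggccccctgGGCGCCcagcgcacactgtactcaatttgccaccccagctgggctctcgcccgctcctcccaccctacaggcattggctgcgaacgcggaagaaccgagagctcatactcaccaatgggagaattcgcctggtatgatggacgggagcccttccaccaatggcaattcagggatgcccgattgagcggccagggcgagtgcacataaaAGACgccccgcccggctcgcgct
*Id3*: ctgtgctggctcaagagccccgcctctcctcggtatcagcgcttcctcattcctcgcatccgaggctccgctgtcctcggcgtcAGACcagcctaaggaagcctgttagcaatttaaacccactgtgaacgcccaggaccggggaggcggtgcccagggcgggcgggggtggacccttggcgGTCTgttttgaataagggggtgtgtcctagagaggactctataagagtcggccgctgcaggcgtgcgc
*Id4*: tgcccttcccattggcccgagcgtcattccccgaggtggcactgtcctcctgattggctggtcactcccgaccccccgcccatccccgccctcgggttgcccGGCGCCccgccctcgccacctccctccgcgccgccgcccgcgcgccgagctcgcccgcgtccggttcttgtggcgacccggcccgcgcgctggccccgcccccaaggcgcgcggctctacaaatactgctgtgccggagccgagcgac
*Bmp4*: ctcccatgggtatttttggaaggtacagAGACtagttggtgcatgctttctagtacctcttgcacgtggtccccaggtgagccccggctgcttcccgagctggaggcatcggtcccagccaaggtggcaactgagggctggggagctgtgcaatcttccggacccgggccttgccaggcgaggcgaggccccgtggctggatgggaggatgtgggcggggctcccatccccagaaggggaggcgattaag
GGCGCC was found 1 time before *Id2* and 1 time before *Id4*, and it occurs in 9.59% of the 32851 mouse promoters of this length. GTCT or AGAC was found 1 time before *Id2*, 2 times before *Id3*, 1 time before *Bmp4* and 0 times before *Id4*, and it occurs in 82.9% of promoters, so that its presence separates few genes. The 250 bases before *Id4* were 75.6% G or C, against a median of 52.4% over all promoters and 62.8% before *Id2* and before *Id3*. A match in letters is no evidence of a bound site, and its absence from this window says nothing of the factor.

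Each member gave a signal well above background on all 3 arrays with at least 1 probe, but many of these signals were weak. An intensity was set against the 95th percentile of 106 control probes against ERCC spike-ins and adenovirus E1A, which have no mouse target. Values on the arrays are given in the order ES-Lhx6-GFP+, then ES-Lhx6-GFP-, then MGE-GFP+, and this limit lay at 376.6, 208.3 and 151.8. Above it were 2 of the 10 members in ES-Lhx6-GFP+ cells (*Bmp4* and *Id4*), 6 in the GFP- cells (*Bmp4*, *Bmp7*, *Nog*, *Id1*, *Id3* and *Id4*) and 3 in MGE-GFP+ cells (*Bmp4*, *Nog* and *Id4*). *Bmp2*, *Id2*, *Msx1* and *Msx2* stayed within the control range on every array. Intensities below are background-subtracted and unscaled, while log2 differences are between values scaled to the 75th percentile of each array, which was 746.8, 843.3 and 575.9 in the same order.

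**Figure D1:**
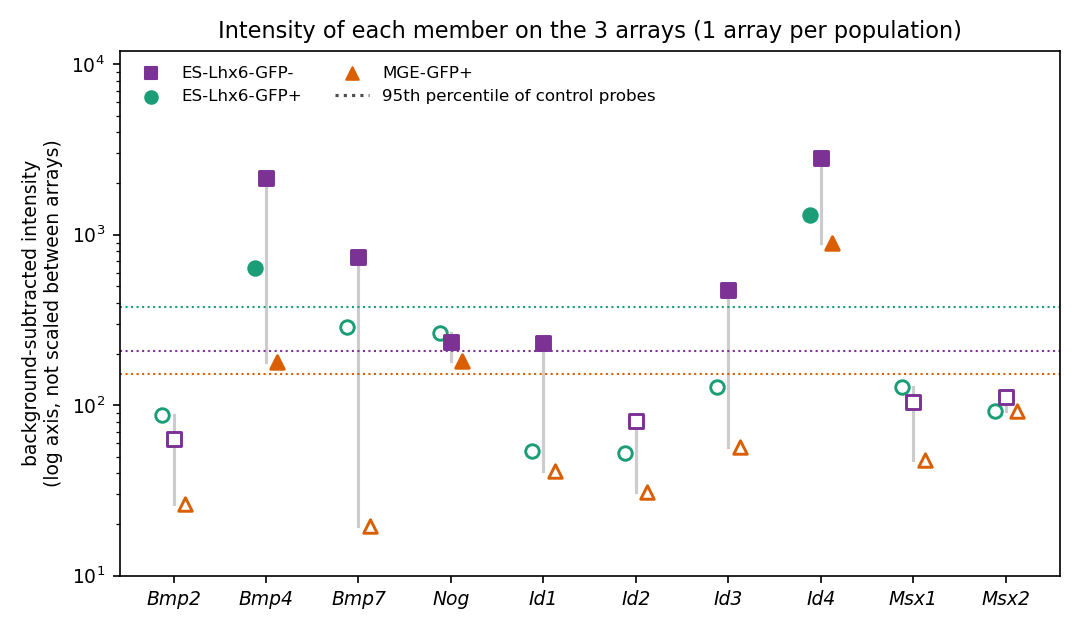
Background-subtracted intensity (log axis, unscaled) of each member in ES-Lhx6-GFP- (squares), in ES-Lhx6-GFP+ (circles) and in MGE-GFP+ cells (triangles), 1 array each, with the brighter probe for *Bmp4*. Filled symbols lie above the 95th percentile of the control probes of that array (dotted line of the same color) and open symbols within it; *Bmp4* and *Id4* are filled on all 3 arrays.

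*Bmp4*, *Bmp7* and all 4 Id genes, 6 of the 10 members, were highest in ES-Lhx6-GFP- cells, and they kept that place under each of the 8 alternative settings that gave them an order. For *Id2*, however, every value lay within the control range. Its difference between the ES populations was within 2 SDs of a difference between repeat spots. *Bmp4*, *Bmp7*, *Id1* and *Id3* were 2.29 to 3.79-fold lower in ES-Lhx6-GFP+ than in ES-Lhx6-GFP- cells. *Bmp4* and *Bmp7* were lower again in MGE-GFP+ cells, at 8.18-fold and 25.8-fold below ES-Lhx6-GFP- cells, the second of these against a signal within the control range. By contrast, the Id genes had no order between the 2 GFP+ populations that held under every scaling. *Nog*, *Msx1* and *Msx2* differed by less than 2-fold between the ES populations.

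Between the ES populations, 0 of the 10 members were at least 2-fold higher and 4 at least 2-fold lower in the GFP+ cells. Of 18658 genes with a value in this comparison, 24.0% were at least 2-fold higher and 6.40% at least 2-fold lower. In MGE-GFP+ against ES-Lhx6-GFP+ cells, 0 members were at least 2-fold higher and 4 were lower (*Bmp2*, *Bmp4*, *Bmp7* and *Msx1*), against 5.49% and 32.2% of 18581 genes. That split did not hold under other scalings, with 3 higher and 2 lower under quantile normalization, 1 and 2 with the deposited values and 1 and 1 with the 50th percentile. In MGE-GFP+ against ES-Lhx6-GFP- cells, 0 members were higher and 5 were lower (*Bmp4*, *Bmp7*, *Id1*, *Id3* and *Id4*), against 9.91% and 17.2% of 17027 genes. The share of members was close to the background in the second of these comparisons, where the count says little about the members, and well above it among lower genes in the other 2. The medians of the members were -0.69, -0.59 and -0.97 on the log2 scale, and those of all genes 0.27, -0.36 and -0.06.

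The split of calls over all genes depended on how the arrays were scaled. The control probes had a median intensity of 69.86, 11.53 and 7.728 on the 3 arrays, and the part of this raised signal in ES-Lhx6-GFP+ cells in the values below was not tested. Of the genes at least 2-fold different in ES-Lhx6-GFP+ against ES-Lhx6-GFP- cells, 78.9% were higher with the 75th percentile, 52.1% with the 50th and 43.4% with quantile normalization. With MGE-GFP+ set against ES-Lhx6-GFP+ these shares were 14.6%, 60.3% and 51.7%, and set against ES-Lhx6-GFP- they were 36.6%, 58.7% and 44.9%. With the 50th percentile the median of all genes moved from 0.27 to -0.18, from -0.36 to 0.40 and from -0.06 to 0.25. The rank of a gene among all genes is not moved by such a shift, and ranks are therefore given below for *Bmp4*, *Bmp7*, *Nog*, *Id1*, *Id3* and *Id4*.

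**Figure D2:**
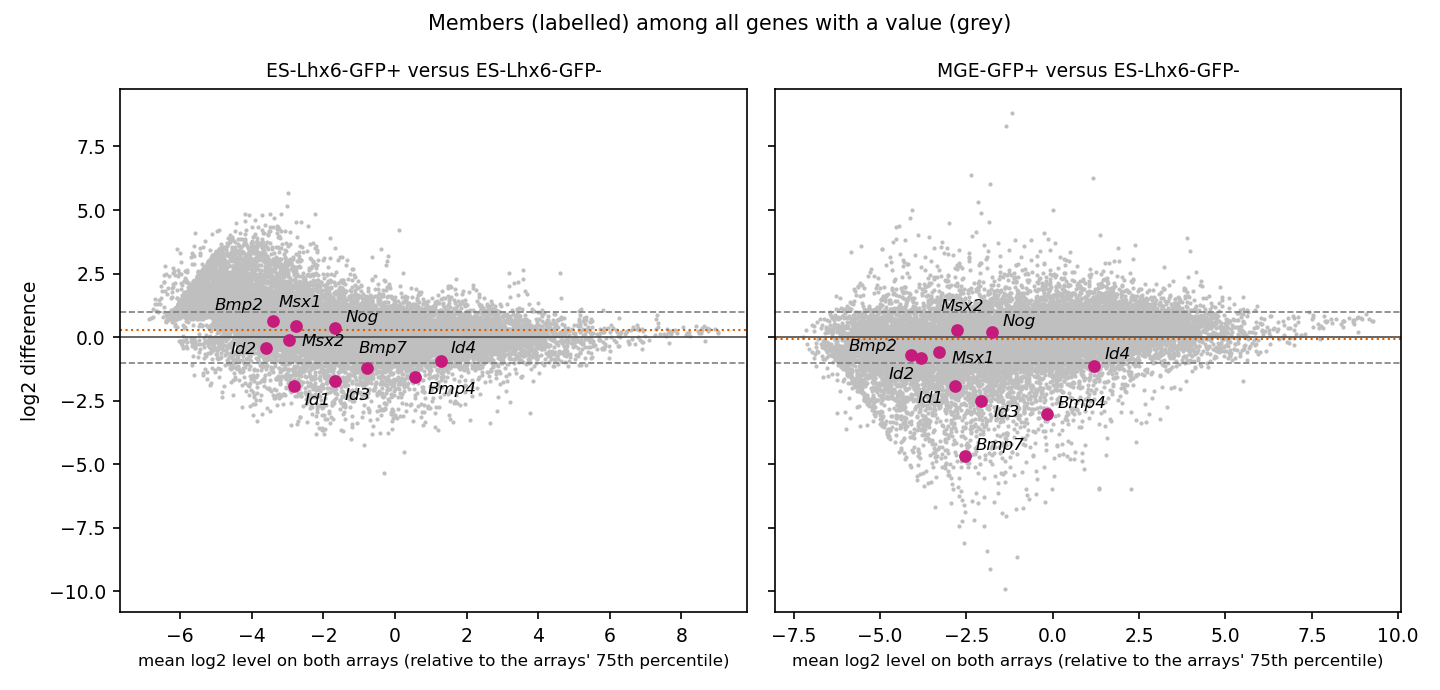
Log2 difference of all genes with a value (grey) and of the 10 members (labeled) against the mean log2 level on both arrays, for ES-Lhx6-GFP+ (left) and MGE-GFP+ (right) against ES-Lhx6-GFP- cells. Dashed lines mark a 2-fold difference and the dotted line the median of all genes; *Bmp4*, *Bmp7*, *Id1* and *Id3* lie below the lower dashed line in both panels.

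Among the ligands, *Bmp4*, a dorsal midline and ventral mesoderm signal that also drives astroglial differentiation, was lower in both GFP+ populations. Its brighter probe gave an intensity of 641.0 in ES-Lhx6-GFP+, 2137 in ES-Lhx6-GFP- and 178.4 in MGE-GFP+ cells, all above the control range. The ES-Lhx6-GFP- array was the highest of the 3 and the MGE-GFP+ array the lowest. The log2 difference was -1.56 in ES-Lhx6-GFP+ against ES-Lhx6-GFP- cells, which placed *Bmp4* at percentile 3.11 of all genes, counted from the lowest difference. It was -1.47 in MGE-GFP+ against ES-Lhx6-GFP+ cells, and -3.03 in MGE-GFP+ against ES-Lhx6-GFP- cells, at percentiles 22.0 and 2.85. All 3 differences were larger than 2 SDs of a difference between repeat spots at these intensities, the SDs being 0.14, 0.14 and 0.12. The other *Bmp4* probe was not well above background on any array, with intensities of 6.192, 6.239 and 7.712, so the gene's values rest on 1 probe.

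*Bmp7*, which is made by dorsal midline, choroid plexus and meningeal cells among others, was lower in MGE-GFP+ cells by more than any other member with arrays scaled to the 75th percentile. Its intensity was 286.3 in ES-Lhx6-GFP+, 741.5 in ES-Lhx6-GFP- and 19.62 in MGE-GFP+ cells, and only the ES-Lhx6-GFP- value lay above the control range. The order of the arrays was the same as for *Bmp4*. The log2 difference was -1.20 between the ES populations, -3.49 in MGE-GFP+ against ES-Lhx6-GFP+ cells and -4.69 in MGE-GFP+ against ES-Lhx6-GFP- cells. These stood at percentiles 4.79, 1.43 and 0.64 of all genes. The last, a fold of 25.8, was -2.95 on the log2 scale with the deposited values, from which no background had been subtracted. With dim values raised to the control limit it was -1.74, and the difference between the ES populations was then -0.80.

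*Bmp2*, a close relative of *Bmp4*, was dim throughout. It gave 87.93, 63.19 and 26.45 on the 3 arrays, all within the control range. Its log2 differences were 0.65, -1.36 and -0.71, and the first changed sign under quantile normalization and with the deposited values (-0.44 and -0.11), the second under quantile normalization (0.20). No order of the 2 ES populations can be given for it.

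*Nog* encodes Noggin, which binds BMP2, BMP4 and BMP7 outside the cell and keeps them from their receptors. Its intensity was 263.9 in ES-Lhx6-GFP+, 234.7 in ES-Lhx6-GFP- and 182.2 in MGE-GFP+ cells, above the control range on the last 2 of these arrays. The 3 values lay close together, and the log2 differences were 0.34, -0.16 and 0.18. The last 2 were within 2 SDs of a difference between repeat spots, and the sign of the first turned with the 50th percentile and that of the second with 5 of 7 alternatives, 0.59 being the highest. *Nog* stood at percentiles 53.7, 57.0 and 61.8 of all genes, near the middle of the distribution.

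The Id genes encode 4 related inhibitors of basic helix-loop-helix factors, of which *Id1* and *Id3* are the most direct transcriptional readouts of BMP signaling in many cell types and are found in dividing neural progenitors. *Id1* gave 54.09 in ES-Lhx6-GFP+, 231.3 in ES-Lhx6-GFP- and 41.21 in MGE-GFP+ cells, and was above the control range in ES-Lhx6-GFP- cells alone. The ES-Lhx6-GFP- array stood apart from the other 2. *Id1* was 3.79-fold lower in ES-Lhx6-GFP+ (log2 difference -1.92) and 3.83-fold lower in MGE-GFP+ (-1.94) than in ES-Lhx6-GFP- cells, at percentiles 1.90 and 7.16 of all genes. Between the GFP+ populations the difference of -0.02 was within the repeat-spot spread, and under the alternatives it ran from -0.02 to 1.74. Both GFP+ values lay within the control range, and that of ES-Lhx6-GFP+ cells lay below the control median of its array, 69.86. With dim values raised to the control limit *Id1* had no value between the ES populations. The difference of MGE-GFP+ against ES-Lhx6-GFP- cells was then -0.06, no longer 2-fold, and with the deposited values it was -1.09.

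*Id3* followed *Id1*. Its intensity was 127.8 in ES-Lhx6-GFP+, 474.0 in ES-Lhx6-GFP- and 57.07 in MGE-GFP+ cells, and again the ES-Lhx6-GFP- array alone was above the control range. It was 3.28-fold lower in ES-Lhx6-GFP+ (log2 difference -1.72) and 5.67-fold lower in MGE-GFP+ (-2.50) than in ES-Lhx6-GFP- cells, at percentiles 2.49 and 4.39. Both GFP+ values lay within the control range, and with dim values raised to the control limit these differences were -0.16, no longer 2-fold, and -1.09. In MGE-GFP+ against ES-Lhx6-GFP+ cells the difference was -0.79 but turned to 0.37 under quantile normalization and 0.38 with the deposited values, so that no order of the GFP+ populations can be given.

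*Id4*, which in the forebrain marks the ventricular zone and takes part in the timing of neural differentiation, was the Id gene with a signal above the control range on every array. It gave 1299 in ES-Lhx6-GFP+, 2831 in ES-Lhx6-GFP- and 890.4 in MGE-GFP+ cells, so that ES-Lhx6-GFP- was again the highest. The fold was 1.93 between the ES populations (log2 difference -0.95, just inside the 2-fold limit) and 2.17 in MGE-GFP+ against ES-Lhx6-GFP- cells (-1.12). Both were larger than 2 SDs of repeat spots, here 0.13 and 0.12 for 1 SD. The difference of -0.17 in MGE-GFP+ against ES-Lhx6-GFP+ cells was within 2 SDs, and it turned to 0.58 with the 50th percentile. The differences against ES-Lhx6-GFP- cells stood at percentiles 6.96 and 15.1 of all genes. With scaling to the 50th percentile they were -1.39 and -0.81, so that only the first was then 2-fold.

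*Id2*, which is also expressed in postmitotic neurons, was dim, with 52.71, 80.37 and 31.07 on the 3 arrays, all within the control range. The log2 differences were -0.43, -0.39 and -0.82, and only the last exceeded 2 SDs of repeat spots, 1 SD being 0.30. The sign against ES-Lhx6-GFP- cells was kept by all 7 alternatives with a value in both comparisons, while that between the GFP+ populations was kept by 4 of 7. The 4 Id genes were thus lower than in ES-Lhx6-GFP- cells in both GFP+ populations under every scaling tried, with log2 differences of -1.12 to -2.50 for *Id1*, *Id3* and *Id4* in MGE-GFP+ cells.

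*Msx1* and *Msx2* encode homeodomain repressors that respond to BMP in the dorsal midline, neural crest and limb. *Msx1* gave 127.8, 105.1 and 47.56 and *Msx2* gave 92.38, 111.3 and 92.52 on the 3 arrays, and no value of either was above the control range. Between the ES populations the log2 difference was 0.46 for *Msx1* and -0.09 for *Msx2*, neither beyond 2 SDs of repeat spots, and both signs turned under some alternative. *Msx1* was 2.07-fold lower in MGE-GFP+ than in ES-Lhx6-GFP+ cells (-1.05), but this became 0.15 under quantile normalization and 0.03 with the deposited values. For *Msx2* the same difference was 0.38, within the repeat-spot spread, and it was higher in all 7 alternatives with a value, at 1.13 with the 50th percentile, 1.61 under quantile normalization and 1.09 with the deposited values. Every value of both genes lay above the median but below the 95th percentile of the control probes of its array. These differences thus rest on weak signals, within the range of probes without a mouse target.

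**Figure D3:**
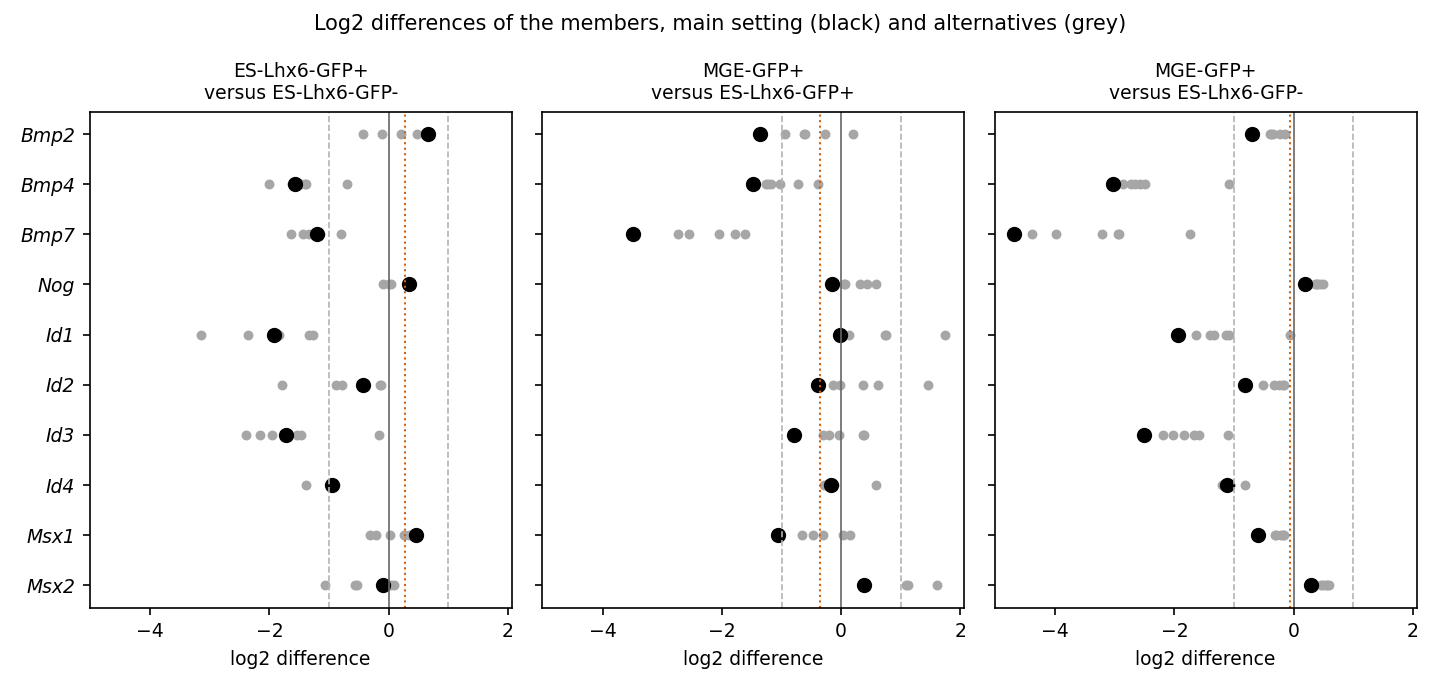
Log2 difference of each member in the 3 comparisons, with the main setting in black and the alternative settings in grey. The solid line is no difference, dashed lines mark 2-fold and the dotted line is the median of all genes; *Bmp4*, *Bmp7* and the 4 Id genes stay left of 0 against ES-Lhx6-GFP- cells in every setting, while *Id1*, *Id2* and *Id3* lie on both sides of 0 in the middle panel.

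The genes whose 3 log2 differences were nearest to those of *Bmp7*, by root mean square distance among 12145 genes, were *Lhx5* (0.00483), *Rbp4* (0.0314) and *C1ql4* (0.102). For *Bmp4* they were *Clic1* (0.01), *Eya2* (0.0637) and *Sil1* (0.0717). For *Id3* they were *Ebf1* (0.0235), *Trim60* (0.0287) and *Lifr* (0.0394). The likeness rests on 3 arrays only, on which many genes come close to any pattern.

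Markers of other cell states also differed between the arrays. All 12 radial glia markers had a value, and 11 were at least 2-fold lower in ES-Lhx6-GFP+ and 10 in MGE-GFP+ than in ES-Lhx6-GFP- cells, with medians of -2.05 and -2.40. Their summed intensity, in units of the 75th percentile of the array, was 14.9 in ES-Lhx6-GFP+, 78.4 in ES-Lhx6-GFP- and 22.5 in MGE-GFP+ cells. Of 12 cell cycle markers 9 and 6 were lower, with sums of 5.04, 25.4 and 12.1. Of 8 astroglial markers 6 were lower in both comparisons, with sums of 6.36, 21.9 and 2.87. *Hes1*, *Vim* and *Slc1a3*, 3 radial glia markers, were lower in ES-Lhx6-GFP+ cells by log2 differences of -2.45, -3.38 and -3.76. In MGE-GFP+ against ES-Lhx6-GFP+ cells, 8 of 11 cell cycle markers with a value were instead at least 2-fold higher and 0 lower. Over all genes these shares were 5.49% and 32.2%. The count of 8 was 10, 9 and 9 with the 50th percentile, quantile normalization and the deposited values. Of the 12 radial glia markers 3 were higher and 4 lower there. These counts were 4 and 2 with the 50th percentile, 2 and 0 under quantile normalization and 2 and 0 with the deposited values. Of 12 dorsal midline and choroid plexus markers, a source of BMPs in the embryo, 10 had a value. Of these, 3 were 2-fold or more above the GFP- ES cells in the GFP+ ES cells and 2 below, and 8 were at least 2-fold lower in MGE-GFP+ than in ES-Lhx6-GFP- cells. The first of these counts turned under the other scalings, with 1 higher and 4 lower at the 50th percentile, 0 and 4 under quantile normalization and 0 and 2 with the deposited values. Their sums were 4.57, 10.7 and 1.90, and *Ttr*, the defining choroid plexus transcript, gave 746.8, 778.1 and 2.649. *Lmx1a*, also counted among the other BMP response genes below, made up 46.8% of the sum in ES-Lhx6-GFP- cells. Of 11 mesenchymal markers 10 had a value in MGE-GFP+ against ES-Lhx6-GFP+ cells, and all 10 were at least 2-fold lower in the former, with sums of 4.28, 6.09 and 0.404, while 0 were above the control range on the MGE-GFP+ array. The count was 5 with the 50th percentile, with quantile normalization and with the deposited values. Of 9 pluripotency markers, 4 were lower and 1 higher in ES-Lhx6-GFP+ and 7 were lower in MGE-GFP+ cells, each against ES-Lhx6-GFP- cells, and *Dppa5a* gave 185.4, 4732 and 39.21 on the 3 arrays and *Utf1* 91.55, 608.9 and 65.13. Their sums of 312, 308 and 393 are 96.8% or more from *Nanog*. The part of these cells in the values of the members was not tested, and in sorted bulk RNA fewer cells of a type and less RNA per cell cannot be told apart.

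Other genes of the pathway were taken from lists by role. Of 12 other BMP and GDF ligands, 10 had a value between the ES populations, of which 3 were 2-fold or more higher in the GFP+ cells and 0 lower. The median of 0.34 and the share of higher genes were close to those of all genes (24.0% higher), and the count of higher genes was 1, 2 and 1 with the 50th percentile, quantile normalization and the deposited values. *Gdf5*, a joint-forming ligand, differed by 1.33, and *Gdf7*, a roof plate ligand, by 0.96. In MGE-GFP+ against ES-Lhx6-GFP+ cells 5 of 10 were lower and 0 higher, with 4, 3 and 2 lower in the same order of settings. *Gdf5* was lower by -1.79. The mean of 2 probes for *Gdf7* was -1.84 or lower, since 1 of them was not well above background in MGE-GFP+ cells. The *Gdf7* probes disagree: the brighter, at 581.7, 612.7 and 333.8 on the 3 arrays, gave 0.10 between the ES populations and -0.43 here. *Bmp10* gave 0.33, -0.79 and -0.46 in the 3 comparisons and *Gdf15* 0.31, -1.07 and -0.76, the first value of each turning sign with the 50th percentile.

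Between the ES populations, the extracellular antagonists and modulators besides *Nog* had no single direction that held in size under every scaling. Of 16 with a value between the ES populations 4 were 2-fold or more higher, a share close to the 24.0% of all genes, and 4 lower in the GFP+ cells. The counts were 3 and 5 with the 50th percentile, 1 and 6 under quantile normalization and 1 and 3 with the deposited values. *Fstl1*, a secreted follistatin-like protein, was lower there by -1.93 and lower in MGE-GFP+ against ES-Lhx6-GFP- cells by -3.10. *Nbl1*, a Dan-family antagonist, gave -1.60 and -1.96 in these comparisons, and *Fstl3*, which binds activins and some BMPs, gave 2.24 and -0.49. *Crim1*, a membrane protein that tethers BMPs, was lower in MGE-GFP+ cells, by -2.48 against ES-Lhx6-GFP+ and -2.28 against ES-Lhx6-GFP- cells. These signs were kept by all alternatives. In MGE-GFP+ against ES-Lhx6-GFP- cells 8 of 15 antagonists and modulators with a value were lower and 1 higher, against 17.2% and 9.91% of all genes. The counts were 7 and 1, 6 and 1, and 4 and 0 in the same order of settings. In MGE-GFP+ against ES-Lhx6-GFP+ cells 11 of 17 were lower and 1 higher, against 32.2% and 5.49% of all genes. There the counts were 6 and 3, 3 and 2, and 3 and 2.

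Of 12 receptor and co-receptor genes 3 were 2-fold or more higher and 0 lower in ES-Lhx6-GFP+ against ES-Lhx6-GFP- cells (median -0.07), a share close to the 24.0% of all genes, and the counts were 1 and 1 with the 50th percentile, 1 and 0 under quantile normalization and 0 and 0 with the deposited values. *Bmpr1a*, a type I receptor found in neural progenitors, differed by -0.36 between the ES populations and by 0.79 and 0.43 in MGE-GFP+ cells against the GFP+ and the GFP- ES cells. *Bmpr1b*, the other main type I receptor, gave 0.96, the sign of which turned under quantile normalization and with the deposited values, and was lower in MGE-GFP+ cells, by -2.32 and -1.36 or lower. Its highest probe intensities, 126.2, 51.51 and 7.063, lay within the control range on every array. The 2 differences of MGE-GFP+ cells ran up to -0.50 and -0.12 under the alternatives. *Tgfbr3*, a co-receptor, was lower in MGE-GFP+ cells by -3.69 and -4.04, and *Rgmb*, a BMP co-receptor of the repulsive guidance family, was higher there by 0.67 and 1.89. *Rgma* gave -0.90, 1.03 and 0.14 and *Acvr2a*, a type II receptor, 0.48, 0.74 and 1.22 in the 3 comparisons.

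Of 9 Smad transducer and Smad cofactor genes with a value, 0 were at least 2-fold different between the ES populations, though 3 were lower with the 50th percentile. With the 75th percentile *Smad5* alone was 2-fold different in MGE-GFP+ cells, at 1.62 and 1.77 above the GFP+ and the GFP- ES cells. The counts of higher genes there were 6 and 3 with the 50th percentile and 2 and 2 under quantile normalization. *Smad1* differed by 0.53, -0.07 and 0.46 in the 3 comparisons, of which the second turned sign under 3 alternatives and the third with the brightest probe. *Skil*, a repressor of Smads, gave 0.47, 0.49 and 0.96, *Zeb2*, a Smad-binding repressor required for interneuron fate, 0.38, 0.58 and 0.96, and *Zfp423*, a Smad cofactor, -0.68, 0.88 and 0.20. The first value of *Zeb2* turned sign with the 50th percentile, with the deposited values and with the brightest probe, as did the third of *Zfp423* with the brightest probe.

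Among 14 other genes known to respond to BMP in some tissue, 12 had a value between the ES populations, of which 6 were 2-fold or more lower and 2 higher in the GFP+ cells (median -0.87). The feedback inhibitors *Smad6* and *Bambi*, often used as readouts of the pathway, were not well above background on any array and gave no value. *Smad7*, another inhibitory Smad, differed by -0.20 between the ES populations and was higher in MGE-GFP+ cells by 1.24 and 1.04, with intensities of 51.08, 66.3 and 93.2 that lay within the control range on every array. The genes of the list with the lowest values are transcription factors with uses of their own. *Gata3* and *Gata2*, which specify GABAergic neurons of the midbrain and hindbrain, gave -1.74 and -2.14 between the ES populations and -9.11 and -7.45 or lower in MGE-GFP+ against ES-Lhx6-GFP- cells. *Lmx1a*, of the roof plate and the midbrain floor plate, gave -2.79 and -5.57, and *Tbx3*, of the hypothalamus and limb, -1.50 and -3.95.

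Partners through which Id proteins act were in large part also lower. Of 12 genes, 11 for E proteins and other basic helix-loop-helix factors and 1 for the retinoblastoma protein (*Rb1*), 10 were 2-fold or more lower and 0 higher in ES-Lhx6-GFP+ against ES-Lhx6-GFP- cells (median -1.76), and the count of 10 was the same with the 50th percentile, quantile normalization and the deposited values. In MGE-GFP+ against ES-Lhx6-GFP- cells 8 were lower and 1 higher (median -2.00). *Neurog2*, a proneural factor of the dorsal telencephalon, gave -3.65 and -5.10, *Olig1* -3.13 and -5.35 or lower, *Olig2*, of ventral progenitors and the oligodendrocyte lineage, -2.93 and -2.17, and *Hes1*, a Notch effector, -2.45 and -3.78. The E protein genes *Tcf4* and *Tcf12* gave 0.13 (turning sign with the 50th percentile) and -1.05 between the ES populations, and 1.22 and 1.36 in MGE-GFP+ against ES-Lhx6-GFP+ cells. *Hes1* and *Hes5* of this list are also radial glia markers, so the lists are not independent of each other.

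**Figure D4:**
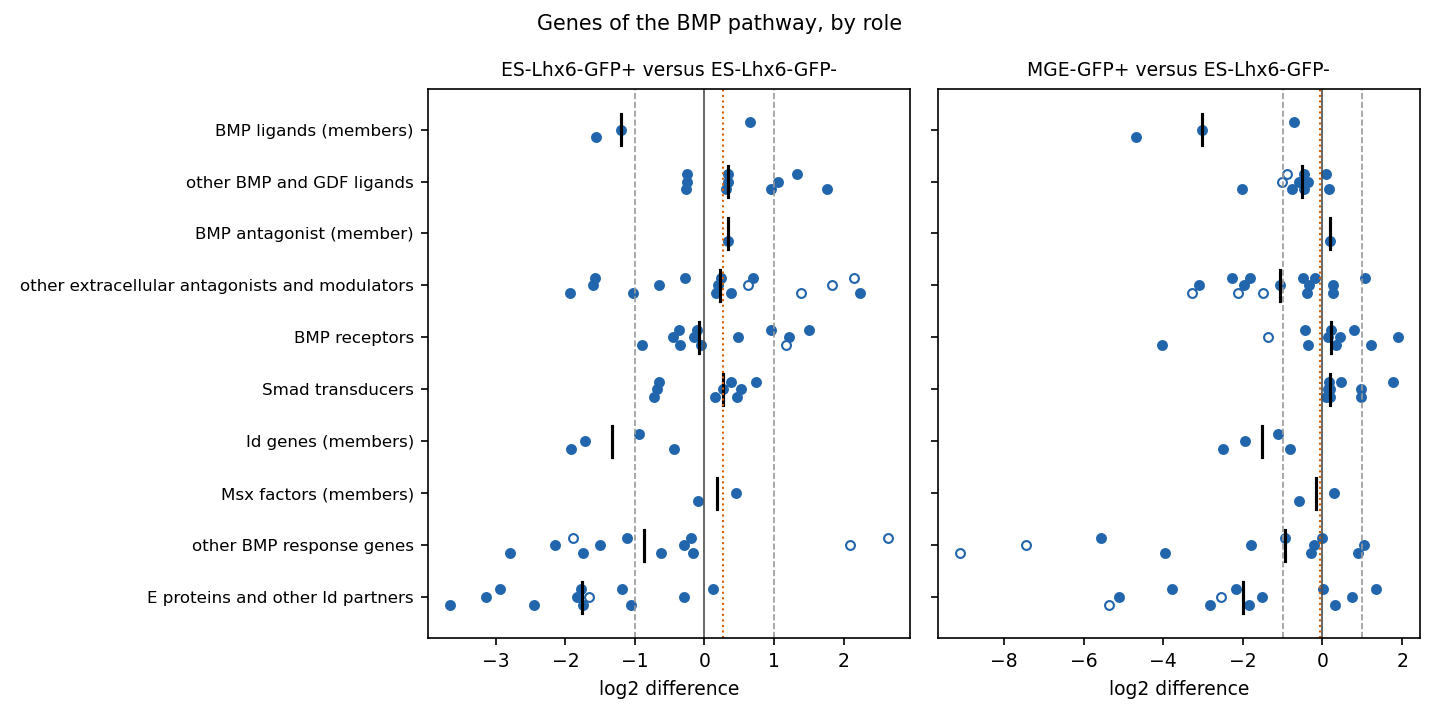
Log2 differences of genes of the BMP pathway, 1 point per gene with a value, grouped by role, for ES-Lhx6-GFP+ (left) and MGE-GFP+ (right) against ES-Lhx6-GFP- cells. Open points are bounds (1 or more probes not well above background on 1 array), vertical bars are medians of a group, dashed lines mark 2-fold and the dotted line is the median of all genes; the Id genes and their partners lie mostly left of 0, with medians of -1.76 and -2.00 for the partners.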

How the data were processed

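RNA of 3 sorted populations was profiled on 1 array each, all on 1 slide. The authors extracted the images with Agilent Feature Extraction (version 10.7.3.1 per the file headers), and the files they deposited give the intensity of 62976 spots per array on a linear scale, after background subtraction and without scaling between arrays. The labels and the paper name different amplification kits and array formats. The authors also deposited log2 values, which equal log2 of the median spot intensity quantile normalized over the mouse spots of the 3 arrays, with the median taken over repeat spots. They are not background-subtracted.

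Values used here are log2 of the background-subtracted intensity minus the 75th percentile of the array. Outlier-flagged spots (98 to 137 per array) were dropped, 0 spots were saturated, and repeat spots were averaged. The software's call decided whether a probe stood well above background (positive on a share of 0.5 or more of its spots), which held for 77.06% to 90.61% of 55681 mouse probes. A dim probe was raised to the lowest well above background level of its array, giving a bound, and no value was given where both arrays were dim. Probes of a gene that gave a value were averaged, and at least 2-fold was counted as different. Probes were named through their RefSeq accession. The files hold no mean signal column, so normexp (limma 3.58.1, R 4.3.3, offset 50) was run on the median signal and the median local background. Python 3.11.15, numpy 2.4.6 and pandas 2.3.3 were used, and the scripts were tested on simulated data.

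The only error available is that of repeat spots of a probe (at least 5 spots) on 1 array. Its SD on the log2 scale was 0.139, 0.141 and 0.144 (ES-Lhx6-GFP+, then ES-Lhx6-GFP-, then MGE-GFP+), and 0.197, 0.220 and 0.203 for intensities of 20 to 150. Variation among cultures, embryos, sorts and amplifications is not in it, and precision is limited by the number of arrays. The SD for the intensity range of a member was used for it. In the pathway lists, the 4 genes with the largest difference in any comparison among those above the control range on at least 1 array were named, together with *Bmpr1a*, *Bmpr1b*, *Smad1*, *Smad6*, *Smad7*, *Bambi*, *Tcf4* and *Tcf12*. Marker genes named besides these were picked after their values were seen. The members, lists and alternatives were chosen with earlier results of these data known. The 8 alternatives were the 50th percentile, quantile normalization, normexp, median intensity without background subtraction, the deposited log2 values, no filter or floor, a floor at the control probes, and the brightest probe of each gene.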

Additional observations from a re-analysis of the deposited data

How the results depend on the processing

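The 4 members at least 2-fold lower in ES-Lhx6-GFP+ than in ES-Lhx6-GFP- cells became 1 with the floor raised to the control probes, where 4 members had a value, and the count stayed within 1.5 times under the other 7 alternatives. The count of 4 in MGE-GFP+ against ES-Lhx6-GFP+ cells became 2 with the 50th percentile (1 higher and 1 lower), 2 with normexp, 2 with median intensity without background subtraction, and 1 with the floor at the control probes, where 2 members had a value. It was 5 under quantile normalization (3 higher and 2 lower) and 3 with the deposited values (1 higher and 2 lower), so that its direction depended on the scaling. The count of 5 in MGE-GFP+ against ES-Lhx6-GFP- cells stayed within 1.5 times under all 8 alternatives. In MGE-GFP+ against ES-Lhx6-GFP+ cells the called value of *Bmp2* reversed to 0.199 under quantile normalization, and that of *Msx1* to 0.152 under quantile normalization and 0.032 with the deposited values. The cause was not tested. Of the single differences under the alternatives, 7 of 74, 19 of 72 and 0 of 76 had the other sign in the 3 comparisons. Without filter or floor, *Bmp4* is a mean with its dim probe, at -0.70, -0.39 and -1.09. The floor at the control probes also moved *Id3* to -0.16 between the ES populations and *Id1* to -0.06 in MGE-GFP+ against ES-Lhx6-GFP- cells. Dim probes limit what can be said of *Bmp2*, *Id2*, *Msx1* and *Msx2*. No paired analysis was possible because each population has 1 array.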

Other observations

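Cell types that a sorted population could hold besides neurons differed between the arrays. The embryonic globin gene *Hbb-y* and the alpha globin gene *Hba-a1*, products of red blood cells, were higher in MGE-GFP+ than in ES-Lhx6-GFP+ cells, by log2 differences of at least 7.46 and of 3.59, and the summed intensity of 7 erythroid markers, in units of the 75th percentile of the array, was 1.43 in ES-Lhx6-GFP+, 0.953 in ES-Lhx6-GFP- and 21.3 in MGE-GFP+ cells. The collagen genes *Col3a1* and *Col1a1*, of mesenchymal cells, were instead lower in MGE-GFP+ than in ES-Lhx6-GFP+ cells, by -4.81 and by -4.37 or lower. *Sparcl1*, a matrix gene of astroglia and other cells, was lower in ES-Lhx6-GFP+ than in ES-Lhx6-GFP- cells by -3.33 and in MGE-GFP+ against ES-Lhx6-GFP- cells by -8.65. Of 7 oligodendrocyte lineage markers, 3 were at least 2-fold lower in ES-Lhx6-GFP+ and 5 in MGE-GFP+ cells, each against ES-Lhx6-GFP- cells. Of 7 neural crest markers with a value, 2 were lower and 1 higher in the first of these comparisons. In the second 6 were lower. These counts were 5, 0 and 4 under quantile normalization and 2, 0 and 3 with the deposited values. Of 11 non-neural ectoderm markers 3 were higher in the first, a share close to the 24.0% of all genes, and 6 lower in the second. These counts were 0 and 4 under quantile normalization and 0 and 2 with the deposited values. Among 7 microglial markers 4 were higher in MGE-GFP+ than in ES-Lhx6-GFP- cells, and 1 was higher in MGE-GFP+ than in ES-Lhx6-GFP+ cells. Between the ES populations 3 of 6 with a value were higher in the GFP+ cells. *Cx3cr1* gave intensities of 20.01, 12.7 and 145.6 in ES-Lhx6-GFP+, then ES-Lhx6-GFP-, then MGE-GFP+ cells, all within the control range. Of 6 endothelial markers with a value 1 was higher and 1 lower in MGE-GFP+ than in ES-Lhx6-GFP- cells. Of 10 neuronal markers 2 were higher there, and 6 with the 50th percentile.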
